A study of Mus musculus with 2 samples.

Results

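Of the regions called for the transcription factor Otp, 927 lay deep inside long genes, out of 11379 regions in the Otp list and 10831 on chromosomes 1 to 19 that overlap no IgG region (8.56%, 95% exact binomial interval 8.04 to 9.10%). A region was counted when its summit lay over 1 kb from the ends of every annotated mouse gene of any biotype and inside a protein-coding gene of 200 kb or more, on chromosomes 1 to 19. The regions came from CUT&RUN, in which an antibody tethers a nuclease to a chromatin protein in nuclei and the released DNA is sequenced. The series has 2 libraries, both from nuclei of the PVN (the hypothalamic paraventricular nucleus) of wild-type (WT) mice whose age and sex are not given in the labels. Nuclei were freed by douncing and cleaned on a sucrose cushion, and a commercial CUT&RUN kit was used. The cell type label reads neurons, and the protocol in the labels describes no sorting of nuclei. Peak positions alone do not check that label. The first library was made with an antibody against Otp (Orthopedia), and the second, the control, with IgG, which has no target. With 1 library per group, no difference below could be set against a spread between replicates, and none was tested across samples. The summit positions in the deposited lists chose the regions, and their number and place are given as a description.

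Otp is a homeodomain transcription factor needed for the development of neuroendocrine neurons of the PVN. Homeodomains of its class bind short AT-rich sites built on the core TAATTA. Long genes in neurons are mostly introns, and many encode adhesion molecules, ion channels and synaptic proteins. Their introns hold enhancers, and many long genes also have internal promoters, from which shorter transcripts start.

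The members whose DNA could be read were those at annotated internal starts, and they included 2 of the 3 with the highest deposited −log10 q of all 927. Regions are called strong or weak by that value unless another is named. A RefSeq table of transcript starts on GRCm38.p6, the assembly that mm10 denotes, gave 300 bases around each start. Of the 884 regions on the chromosomes that this table covers, 40 (4.52%, 3.25 to 6.11%) had their summit within 500 bp of an internal start, that is, a start over 1 kb from every gene end. They lay in 38 genes. The 8 strongest whose summit fell in the 300 bases are shown to let the sequence under the strongest regions be seen. Each stretch runs 5′ to 3′ on the gene's strand and covers the bases upstream of the start within 75 bp of the summit. Capitals mark matches on either strand of TAATTA (the homeodomain core), GGGCGG (the GC box of Sp factors, CCGCCC on the other strand), TGANTCA (the AP-1 site) and CCAAT (the NF-Y box, ATTGG on the other strand).
Hdac4 (chr1:92180482-92180591, reverse strand): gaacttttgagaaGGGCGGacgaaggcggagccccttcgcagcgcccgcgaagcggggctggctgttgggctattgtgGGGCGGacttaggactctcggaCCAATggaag
Rps6ka2 (chr17:7169968-7170114, forward strand): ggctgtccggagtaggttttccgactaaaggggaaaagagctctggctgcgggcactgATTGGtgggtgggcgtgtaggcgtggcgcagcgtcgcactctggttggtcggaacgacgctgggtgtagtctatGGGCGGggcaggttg
Btbd11 (chr10:85386720-85386813, forward strand): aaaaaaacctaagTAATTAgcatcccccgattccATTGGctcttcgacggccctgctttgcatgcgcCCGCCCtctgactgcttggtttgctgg
Specc1 (chr11:62076834-62076983, forward strand): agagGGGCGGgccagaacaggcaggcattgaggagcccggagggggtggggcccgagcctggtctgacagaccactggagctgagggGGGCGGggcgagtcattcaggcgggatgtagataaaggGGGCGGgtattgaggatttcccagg
Pcca (chr14:122534127-122534276, forward strand): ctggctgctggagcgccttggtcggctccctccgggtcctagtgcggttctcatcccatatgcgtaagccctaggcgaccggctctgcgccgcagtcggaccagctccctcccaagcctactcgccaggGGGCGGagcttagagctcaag
Pcdh9 (chr14:93890680-93890818, reverse strand): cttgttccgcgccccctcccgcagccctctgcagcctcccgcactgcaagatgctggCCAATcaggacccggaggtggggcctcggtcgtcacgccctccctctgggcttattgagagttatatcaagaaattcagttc
Pdss2 (chr10:43221362-43221485, forward strand): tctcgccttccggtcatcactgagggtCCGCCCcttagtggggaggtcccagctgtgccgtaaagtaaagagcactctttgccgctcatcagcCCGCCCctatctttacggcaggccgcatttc
Ccdc85a (chr11:28584325-28584420, reverse strand): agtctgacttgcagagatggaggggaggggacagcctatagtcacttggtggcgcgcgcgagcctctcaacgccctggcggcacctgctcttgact

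GGGCGG was in 6 of these 8 stretches, CCAAT in 4, TAATTA in Btbd11 alone and TGANTCA in none. Specc1 had 3 copies of GGGCGG, and Hdac4 and Pdss2 had 2 each. The stretch at Ccdc85a held none of the 4 motifs. A match describes the letters and is not a measured binding site.

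The region with the highest −log10 q was the one at Hdac4, a histone deacetylase that shuttles between nucleus and cytoplasm. It covered chr1:92180266-92180653, 215 bp upstream of an internal start that lies 15.4 kb into the gene. Its summit held 93 tags (95% Poisson interval 75.1 to 114), worked out from the deposited values, over a local background of 3.09 tags. Tags are the reads or fragments that the caller piled up. Its fold enrichment, the authors' value over the caller's background, was 22.97, and its deposited −log10 q was 95.8. Rps6ka2, a ribosomal S6 kinase, came 3rd with 43 tags (31.1 to 57.9), and its fold enrichment was 14.1. That region, chr17:7169764-7170144, lay 72 bp upstream of a start 81.1 kb into the gene. Next among the internal starts were Btbd11 with 28 tags, Specc1 with 27, Pcca, a subunit of a mitochondrial carboxylase, with 20, the protocadherin Pcdh9 with 25 and Pdss2, an enzyme of coenzyme Q synthesis, with 21. Ccdc85a, with 21 tags, and the cohesin subunit Stag1, with 25, followed.

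Internal starts with a region lay from 1.25 to 2184 kb into their genes. Many were close to the outer start: 15 of the 40 regions lay 1 to 10 kb from it. Among these were Btbd11, Pcdh9, Ccdc85a and Pdss2, with internal starts 1.8, 2.2, 2.9 and 3.2 kb into the gene. At Cntnap2, a neurexin-like adhesion protein, the start was the deepest (13 tags), and at Nrxn3, a presynaptic neurexin, it was 1090 kb in (14 tags). Next came Schip1 (508 kb, 13 tags) and the cadherin Cdh18 (488 kb, 13 tags). Others of neuronal genes were at Nav2, Dclk1, Nlgn1, Sgip1, Unc13b, Trpm3, Cacnb4 and App, with 8 to 21 tags. Of the 40 regions, 33 had the summit upstream of the start. These genes were chosen for naming after their values were seen.

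Internal starts took up little of the sequence but a larger part of the regions. Bases within 500 bp of an internal start made up 0.128% of the eligible bases, those of long genes over 1 kb from every gene end, so 1.13 of the 884 regions would lie there by length against the 40 observed. Within 100 bp of a start, 22 regions lay where 0.237 would by length. The share was highest among the strongest regions, while the intervals of the 3 weaker bands overlapped. It was 2.74% (1.26 to 5.14%) of 328 regions with a −log10 q under 5, 3.90% (2.25 to 6.26%) of 410 from 5 to 10, 5.50% (2.05 to 11.6%) of 109 from 10 to 15, and 24.3% (11.8 to 41.2%) of 37 at 15 or more. The median pileup was 14 tags (quartiles 10 and 18.5) at internal starts and 10 tags (8 and 13) at the other 844. Still, few internal starts carried a region: 41 of 520 (7.88%, 5.72 to 10.5%), against 162 of 619 outer starts of long genes (26.2%, 22.7 to 29.8%). The start table holds no start on chromosome 18.

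**Figure D1:**
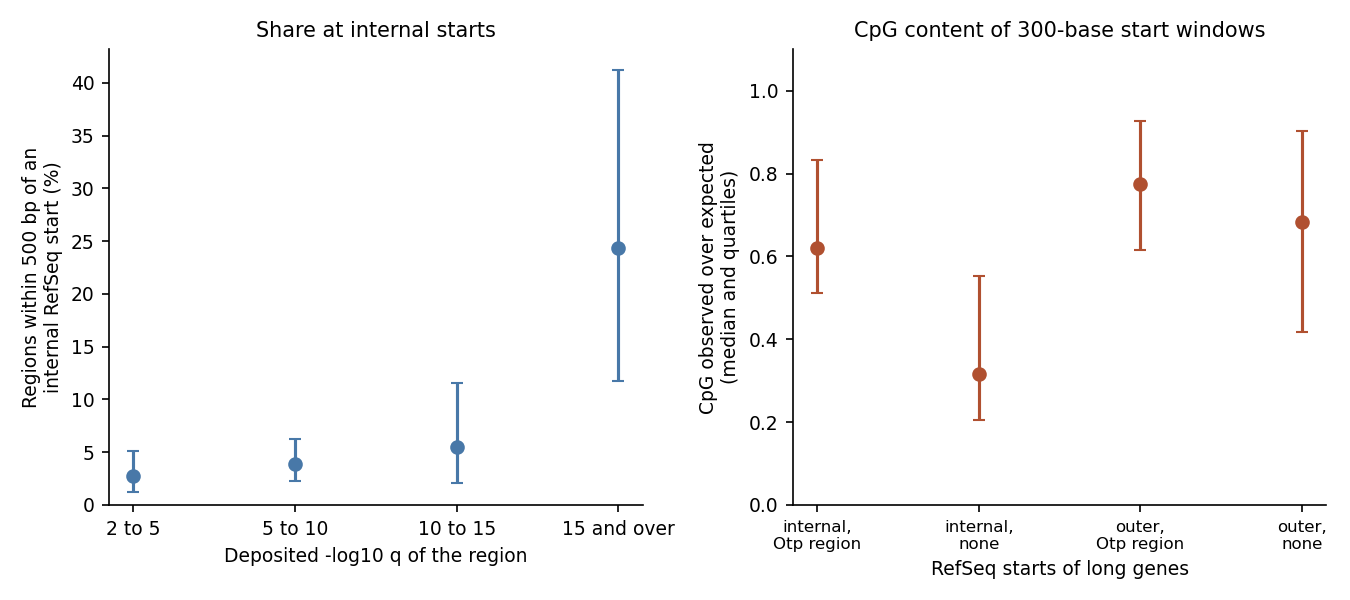
Left, the share of Otp regions deep inside long genes within 500 bp of an internal RefSeq start (%), by deposited −log10 q, with 95% exact binomial intervals. Right, the CpG ratio of 300-base windows at starts of long genes (median as a point, quartiles as bars). The share is 24.3% in the strongest band, and internal starts with a region have a median CpG ratio of 0.62 against 0.32 for those without.

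Internal starts with a region were richer in CpG and GC than those without. The median GC content was 62.3% (quartiles 52.0 and 67.3) in the 41 windows with a region and 50.3% (44.5 and 58.0) in the 479 without. The CpG ratio, observed over expected from base content, had medians of 0.62 and 0.32. GGGCGG was in 21 of 41 windows (51.2%, 35.1 to 67.1%) against 125 of 479 (26.1%, 22.2 to 30.3%), and CCAAT in 24 of 41 (58.5%, 42.1 to 73.7%) against 160 (33.4%, 29.2 to 37.8%). The homeodomain core TAATTA was in 1 of 41 (2.44%, 0.0617 to 12.9%) against 35 of 479 (7.31%, 5.14 to 10.02%). Over all 31360 starts in the table, GGGCGG was in 35.9% of windows of the same length, CCAAT in 37.3%, TAATTA in 5.27% and TGANTCA in 7.85%. At outer starts of long genes GGGCGG was in 72.8% of the 162 windows with an Otp region and 52.7% of the 457 without. TAATTA was in 3.70% (1.37 to 7.89%) and 2.19% (1.05 to 3.99%) of these, so its shares at outer and internal starts differed in opposite directions, with overlapping intervals in both. The part that base composition plays in the motif shares was not tested.

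Outside the internal starts in the table, the strongest region was at Lrp1b, a receptor of the LDL receptor family. It covered chr2:41896143-41896275 with 56 tags (42.3 to 72.7) over a local background of 0.684 tags, a fold enrichment of 33.8, which is above that of the Hdac4 region. It was the single Otp region deep inside this gene of 2058 kb, where 4.85 would lie by length. Stox2 followed with 35 tags and a fold enrichment of 15.5, 79.5 kb from the gene's start. A region on chromosome 18 with 36 tags lay inside 3 overlapping predicted gene models (Gm37013, Gm38666 and Gm38667) and was counted once. Lrrc4c, a postsynaptic ligand of netrin-G, had 32 tags, 1148 kb from its start. The others of the 15 with the highest −log10 q were at the axonemal dynein Dnah7b (23 tags), the kinase Dclk1 of microtubules (27), Pcca again (22), Arhgap26 (30), the formin Diaph3 (25), the active zone protein Erc2 (25) and the mitochondrial tRNA synthetase Fars2 (22). At the other extreme were Myt1l, Frmd4a, the peptide-amidating enzyme Pam, the potassium channel Kcnq3 and Otud7a, with 6 to 8 tags and a −log10 q of 2.04 to 2.10.

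Most regions deep inside long genes were weak. A pileup could be worked out for 918 of the 927. Its median was 11 tags (quartiles 9 and 13, range 6 to 93). The 5882 regions within 1 kb of a gene end had a median of 15 tags (11 and 21), those inside shorter coding genes 12 (9 and 16) and those between genes 10 (8 and 13). A −log10 q of at least 10 was reached by 154 regions deep inside long genes (16.6%), against 43.8% at gene ends, 23.7% in shorter genes and 18.9% between genes. The median fold enrichment was 6.37 against 7.45 at gene ends. The local background was over 1.5 times the library's genome background of 0.512 tags at 438 of the 918 (47.7%) and over 2 times at 198 (21.6%).

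The IgG list held 20 regions deep inside long genes, and 19 Otp regions there were left out because they overlapped an IgG region. Among Otp regions there with a −log10 q of 30 or more, 14 of 19 (73.7%, 48.8 to 90.9%) overlapped an IgG region, and under 20 it was 2 of 914 (0.219%, 0.0265 to 0.788%). The IgG genome background was 0.0873 tags, 5.87 times lower. Scaled by that ratio, the median of 11 tags corresponds to 1.87 IgG tags, and 15 of the 918 (1.63%) reach the 4 tags of the weakest IgG region on these chromosomes. For the rest, a difference from IgG was not detectable at this depth. The 6 regions left out in Myo3a lay in a block where the Otp local background was 12.04 to 12.08 tags. A Myo3a region of 62 tags beside them, with a fold enrichment of 4.82 over a background of 12.1 tags, overlapped no IgG region and is among the 927.

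The regions were spread over 500 of the 944 long genes (53%), and 444 had none. Of the 500, 266 had 1 region and 234 had several, which is 24.8% of the long genes. At least 3 regions lay in 114 genes (12.1%) and at least 5 in 23. The eligible sequence came to 390 Mb, so that 1 region lay in every 421 kb. The number expected in a gene is its eligible length times this rate. If each gene's count followed a Poisson law around that number, 538 genes would hold at least 1 region, 233 at least 2, 94.2 at least 3, 17.04 at least 5, 7.60 at least 6 and 3.398 at least 7. The observed numbers were 500, 234, 114, 23, 12 and 3. The counts of genes with at least 2 and with at least 7 regions were thus close to what length alone gives, with more genes at 0 and at least 3, 5 or 6. When regions within 5 kb of each other were counted once, 104 genes held at least 3.

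Magi2, a scaffold of synapses, held the most, with 9 regions (95% Poisson interval 4.12 to 17.1) against 3.45 expected. Its regions had 7 to 16 tags and lay 182 to 1483 kb from the start. Ptprn2, a phosphatase-like protein of dense-core vesicles, held 8 against 1.84, and Lama2, a laminin chain of basement membranes, held 7 against 1.49. Then 9 genes held 6. Of these Tmcc3 stood at 0.635 expected, Dclk1 at 0.676 and Myt1l, a neuronal zinc finger repressor, at 0.911. Psd3 stood at 1.21, the phosphodiesterase Pde1c at 1.36, Arhgap24 at 1.64, the postsynaptic scaffold Dlgap2 at 1.77 and the proton-gated channel Asic2 at 2.51. The 11 genes with 5 were Usp29, Myo1d, Gse1, Arid1b, Maml3, Zbtb20, Arhgap26, Camta1, Pde4d, Dlg2 and Cntnap2. For the last of these, Cntnap2, 5.24 were expected, and for Dlg2 4.63.

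**Figure D2:**
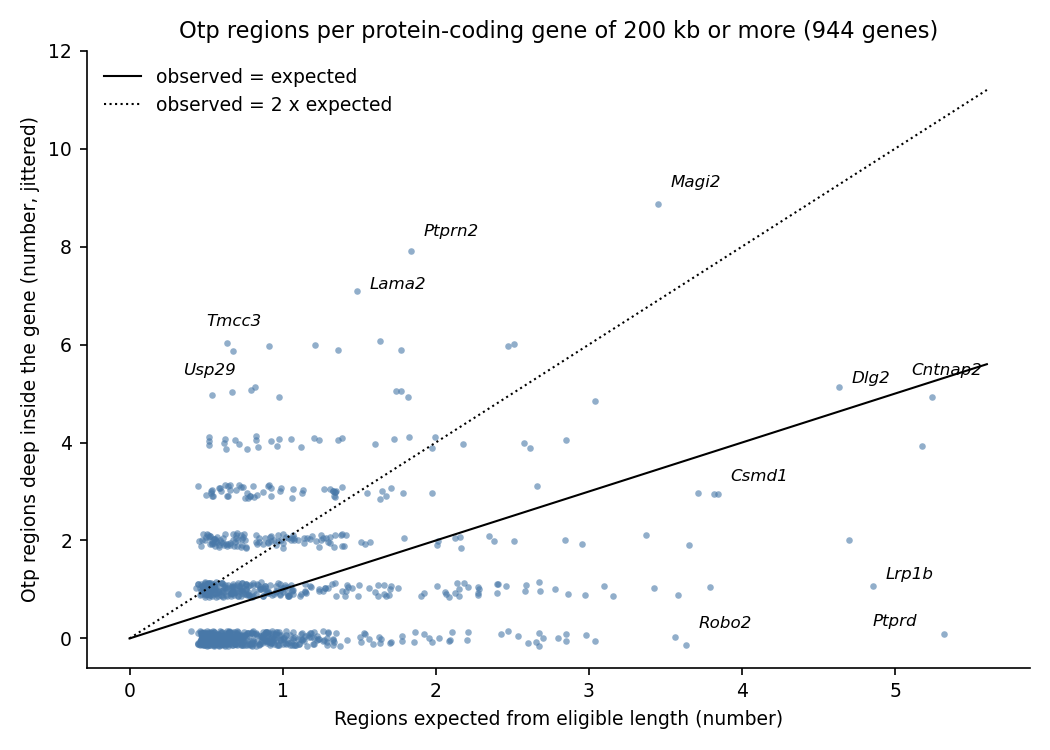
Each point is 1 of the 944 coding genes of 200 kb or more, with the number of Otp regions expected from its eligible length (x) and the number observed (y, jittered). The solid line marks equality and the dotted line 2 times the expected number. Magi2 with 9 and Ptprn2 with 8 lie above the dotted line, and Ptprd with 0 and Lrp1b with 1 lie far below the solid line.

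By density the order was different. Among genes with at least 3 regions, the ratio of observed to expected was highest in Tmcc3 (9.45, 95% Poisson interval 3.47 to 20.6), the deubiquitinase Usp29 (9.23, 3.00 to 21.5) and Dclk1 (8.87, 3.26 to 19.3). Phactr3 (7.74), the actin nucleator Cobl (7.71), Sash1 (7.68), the myosin Myo1d (7.46), the coactivator Zmiz1 (6.69), Myt1l (6.58) and Hdac4 (6.45) completed the 10. The intervals cover counting error only, and these genes were ranked on the same counts. The order among the first 3 changed with the setting: with regions within 5 kb counted once, Dclk1 stood at 9.23 and Tmcc3 at 8.19, and against genes of like length Usp29 stood at 7.77 and Tmcc3 at 6.76. No region of Tmcc3 had a −log10 q of 10 or more. A ratio over 2 with at least 3 regions was found in 95 genes (10.1% of long genes). How many such genes length alone would give was not worked out. For at least 3 regions at any ratio, it would give 94.2 genes against 114 observed. With only regions at a −log10 q of at least 10, 2 genes were left (Pde1c and Dlgap2), and at 5 or more, 47.

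**Figure D3:**
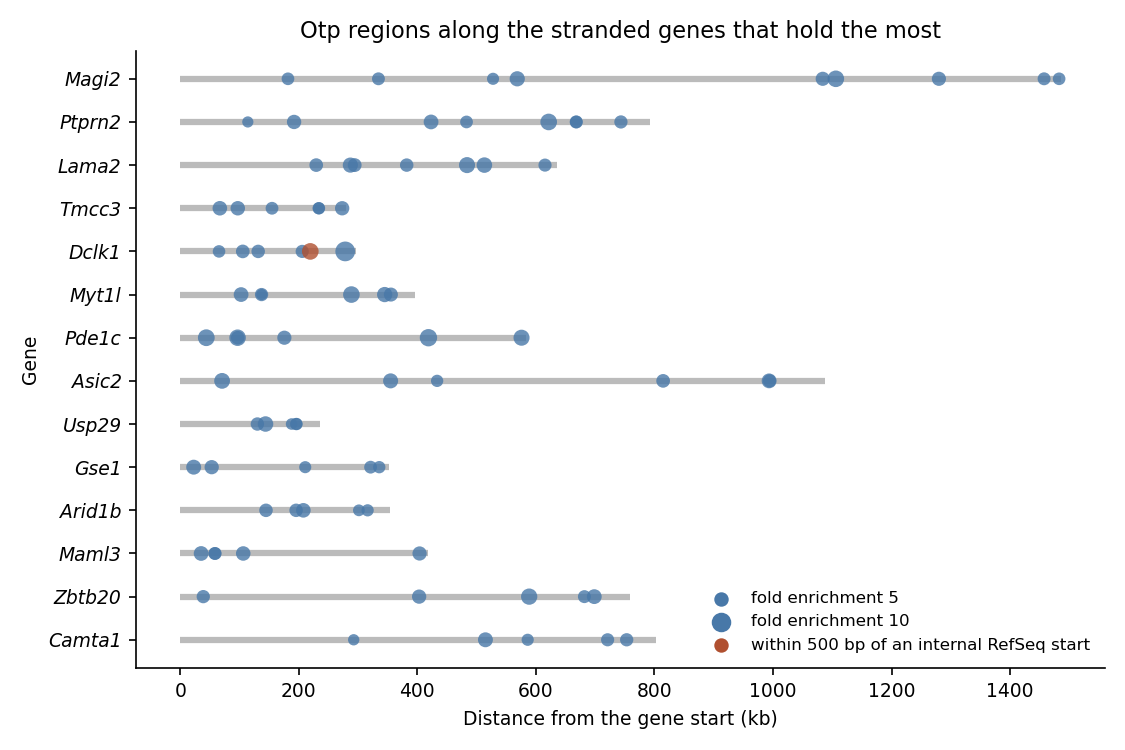
The 14 genes with the most regions among those whose strand is known, drawn as bars from the start (0 kb). Dots are Otp regions, sized by the deposited fold enrichment. The red dot in Dclk1 is the region at an internal start, and the 9 regions of Magi2 run from 182 to 1483 kb.

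The pileup varied between the regions of a gene. Those of Dclk1 had 8, 13, 12, 11, 21 and 27 tags from start to far end, and the 21 tags were at an internal start 219 kb into the gene. The 6 of Myt1l had 17, 12, 8, 20, 19 and 15 tags. In Tmcc3 they had 13, 12, 8, 10, 10 and 14, and none lay within 500 bp of an internal start. In Dlgap2 the values from the lower end were 18, 19, 15, 12, 8 and 8. Regions of the same gene share the library and are not replicates.

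Neighbouring regions in a gene mostly lay far apart. Over 443 pairs of neighbours the median gap was 74.3 kb, and 32 gaps were under 1 kb. Whether such close pairs are parts of the same stretch of signal was not tested. They occurred in Ptprn2, Tmcc3, Myt1l and Dlgap2 among others. Counting regions within 5 kb of each other once left 891, and 225 genes with several.

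The longest genes held fewer regions than their length gives. The 55 genes of 1000 kb or more held 97 regions against 172 expected, a ratio of 0.564, and those of 600 to 1000 kb 148 against 162. Genes of 250 to 300 kb held 140 against 100, a ratio of 1.40, and those of 200 to 250 kb 154 against 130 (1.19). The density ran from 3.31 regions per Mb (2.78 to 3.91) at 250 to 300 kb down to 1.34 (1.09 to 1.64) at 1000 kb or more, below the 1.64 (1.57 to 1.71) between genes. In coding genes under 50 kb it was 3.72 (3.45 to 4.00). The share of the sequence that reads can be placed on was not measured. Over all long genes the density was 2.38 per Mb (2.23 to 2.53), against 38.2 within 1 kb of a gene end and 3.20 in shorter coding genes. The IgG list gave 0.0513 per Mb in long genes and 0.0972 between genes.

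**Figure D4:**
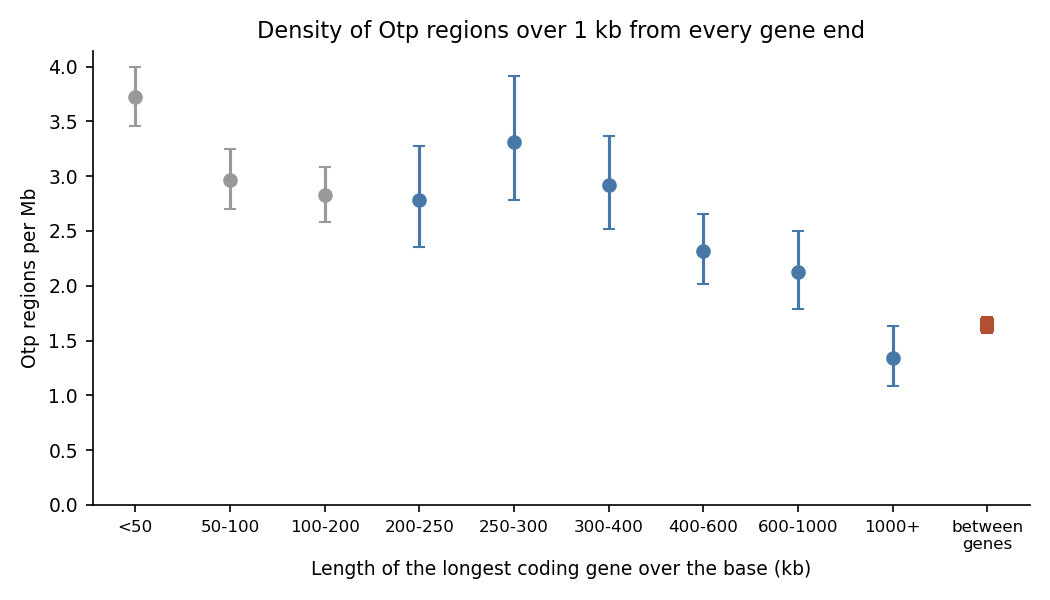
Otp regions per Mb of sequence over 1 kb from every gene end, by the length of the longest coding gene over the base, with 95% Poisson intervals. Blue points are the long genes described here, grey points are shorter genes and the red square is the sequence between genes. The density is 3.31 per Mb at 250 to 300 kb and 1.34 at 1000 kb or more.

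Among the 10 genes with the most eligible sequence and no region, Ptprd, a receptor phosphatase of synapses and at 2271 kb the longest gene of all, held none against 5.32 expected, so that at most 0.694 times the expected number is within its interval. With the same rate for all long genes it was the only one of the 944 whose 95% interval lay below 1. Against genes of like length 3.001 were expected, the upper bound was 1.23, and none of the 944 had an interval below 1. The slit receptor Robo2 (3.63 expected), the potassium channel partner Dpp10 (3.56), the teneurin Tenm3 (3.04), the contactin Cntn5 (2.98), Ccser1 (2.85), Nkain2 (2.85), the cGMP-dependent kinase Prkg1 (2.80), the cadherin Cdh12 (2.70) and Sgcz (2.68) followed.

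Grouped by function, the synaptic and neuronal adhesion genes held the fewest regions for their length. Of the 50 long genes in that list 29 had a region (58.0%), with 56 regions against 106 expected (ratio 0.526, 0.398 to 0.683). By length, 39.9 of the 50 would have a region. Over all 944 long genes 538 would by length, and 500 did (53%). The median ratio of the adhesion genes was 0.405, and that of all 944 was 0.475. Against genes of like length the ratio of the adhesion list was 0.709 (0.535 to 0.920), and that of the microglial list was lower (0.626, 0.203 to 1.46). With a −log10 q from 10 the adhesion list stood at 0.509, and other lists lay lower, such as cadherins and catenins (0.422). Cntnap2 had 5 regions, the Down syndrome adhesion molecule Dscam 4 and Lsamp 4. Cadherins and catenins had 20 against 28.5 (0.702, 0.429 to 1.08), with 4 each in Cdh18 and the α-catenin Ctnna2. Genes at chromosomal fragile sites, some of them in the adhesion list too, had 53 against 70.8 (0.749), but 1.18 times the number against genes of like length.

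Synaptic scaffolds and release machinery held 52 regions against 42.7 expected (ratio 1.22, 0.910 to 1.60). These lay in 18 of 30 genes (60%), where 20.7 genes would have a region by length. Against genes of like length the interval lay above 1 (1.36, 1.02 to 1.79). The interval took in 1 with a −log10 q from 5 (1.26, 0.870 to 1.76) or 10 (1.83, 0.977 to 3.14). So it did with genes of at least 100 kb (1.11, 0.831 to 1.45) and with regions within 5 kb counted once (1.20, 0.884 to 1.58). Magi2 alone held 9 of the 52 regions, at a ratio of 4.62 against genes of like length. The ratio of the list without Magi2 was not worked out. Then came Dlgap2, Dlg2 and the calcium sensor Syt1, which had 4. Chromatin and transcription cofactors held 27 against 17.7 (1.53, 1.006 to 2.22), in 12 of 22 genes (54.5%, against 11.2 genes by length). That interval took in 1 against genes of like length (1.41, 0.931 to 2.06) and with regions within 5 kb counted once (1.53, 0.999 to 2.24). So it did with a −log10 q from 5 (1.51, 0.883 to 2.43) or 10 (1.36, 0.371 to 3.48). With genes of at least 100 kb it lay above 1 (1.51, 1.09 to 2.05). Arid1b, a subunit of the BAF remodelling complex, had 5, Hdac4 and Auts2 had 4 each, and the remodeller Chd9 had 3. Cyclic nucleotide and protein kinase signalling held 58 against 47.6 (1.22), led by Pde1c, Pde4d and the kinases Mapk10 and Tnik. The cytoskeleton list held 42 against 34.9 (1.20), with 4 in Myo16.

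Transcription factor genes held 43 against 49.7 (0.865, 0.626 to 1.17), in 21 of 51 genes (41.2%, against 30.2 genes by length). Maml3, a Notch coactivator rather than a DNA-binding factor, Zbtb20 and Camta1 had 5 each and the nuclear factor Nfia 4. Ion channel genes held 41 against 44.4 (0.923), with 4 in the calcium channel gene Cacna1c. Genes of transmitter receptors held 24 against 26.3 (0.914), with 3 each in the opioid receptor Oprm1 and the glutamate receptor Gria1. RNA-binding proteins held 10 against 14.0 (0.714). For other cells, astrocyte markers held 8 regions against 9.87, oligodendrocyte markers 15 against 16.2, microglial markers 5 against 8.02 and vascular markers 4 against 4.72. A list drawn up as genes not known for expression in brain held 19 against 19.1 (0.995, 0.599 to 1.55). Of these, 7 were in Lama2 and 4 in the collagen Col22a1. The name of this list was not checked against expression data and may not hold for Lama2, so its ratio rests partly on a doubtful member. The lists share genes, and no list was tested against the others.

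**Figure D5:**
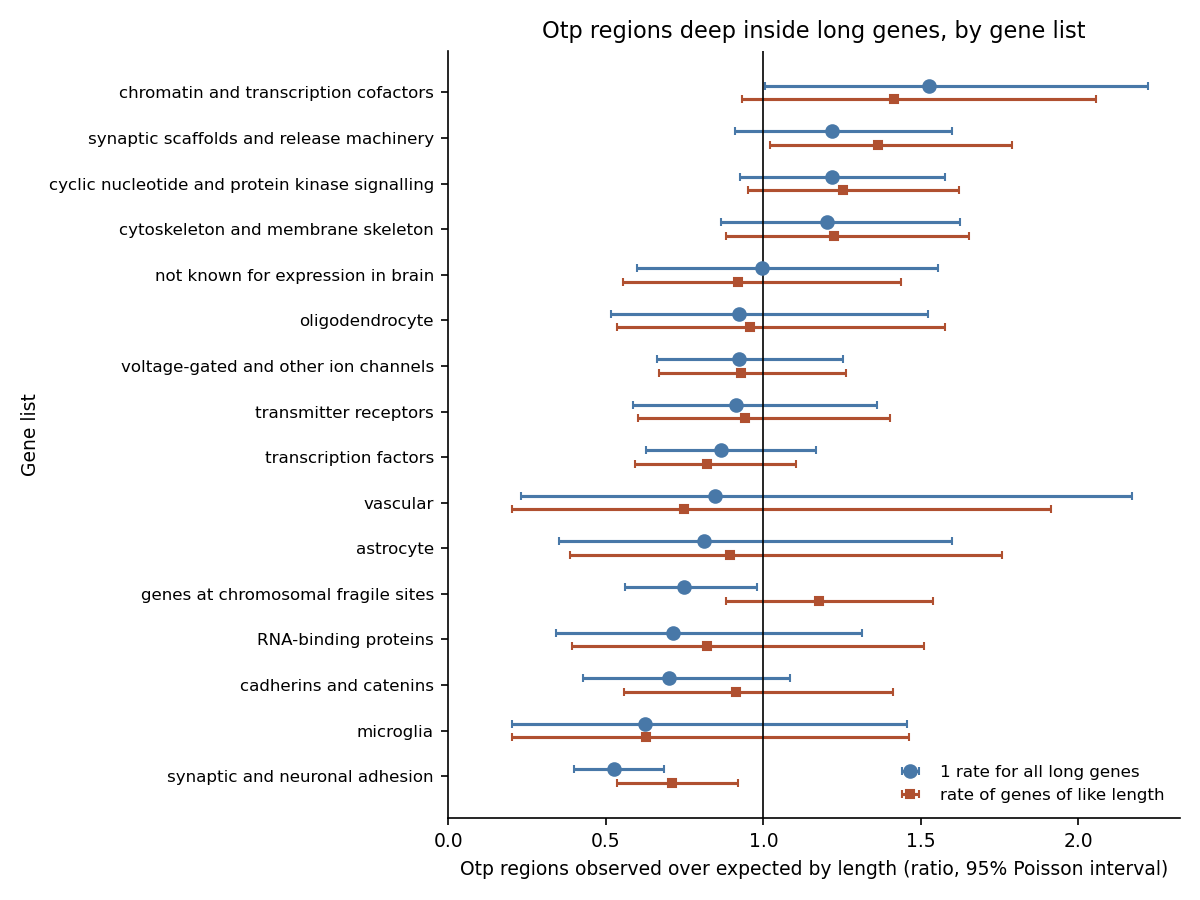
Ratio of Otp regions observed to the number expected by length for lists of long genes, with 95% Poisson intervals. Blue circles use the same rate for all long genes and red squares the rate of genes of like length. Adhesion genes lie lowest among the blue circles at 0.526, but not among the red squares. Fragile site genes move from 0.749 to 1.18 between the scales.

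The ends of genes with and without a deep region carried Otp regions in like shares, with intervals that overlapped. Of the 500 genes with a deep region, 124 (24.8%, 21.1 to 28.8%) also had an Otp region within 1 kb of an end. Of the 444 without, 114 did (25.7%, 21.7 to 30.01%), against 25.2% over all long genes. With at least 3 deep regions it was 30 of 114 (26.3%, 18.5 to 35.4%). The strand was known for 707 genes. Among the 367 of these with a deep region, the start carried a region in 95 (25.9%, 21.5 to 30.7%) and the far end in 0, where the limit of 3 counts in 367 allows a share of up to 0.817%.

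Places along the gene could be given only for genes whose strand was known, so not all 927 regions enter them. In these genes, more regions than length gives lay close to the start and towards the far end. Between 1 and 10 kb from the start lay 32 against 14.2 expected by eligible length (ratio 2.25, 1.54 to 3.18), and 15 of these 32 were at internal starts. From 10 to 50 kb it was 50 against 63.9 (0.782, 0.580 to 1.03). With the gene cut into 5 equal parts, the last held 177 against 136 (1.30, 1.11 to 1.51) and the first 129 against 136. Over all 927 regions, the nearest gene end of any biotype lay at a median of 35.3 kb (quartiles 14.0 and 75.6, largest 523). Exon models were not used here, so exons and introns were not separated. By chromosome, the ratio ran from 0.699 (0.478 to 0.987) on chromosome 9, with 32 regions against 45.8, to 1.58 (1.22 to 2.02) on chromosome 11, with 64 against 40.5.

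Just inside the limit of 1 kb were the regions at Pcdh15 (1036 bp from a gene end, fold enrichment 6.52), Tcf4 (1059 bp, 8.52) and Plekhg1 (1100 bp, 5.95). Just outside it were those at Dgki (954 bp, 8.06), Foxn3 (946 bp, 7.14) and Nrg1 (808 bp, 6.29). The shortest gene with a counted region was Tspear at 200.9 kb, and the longest left out was Sergef at 199.7 kb.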

How the data were processed

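CUT&RUN peak lists of 1 Otp and 1 IgG library were used as deposited. The submitters' processing notes name Trimmomatic, Bowtie2, Picard, SAMtools and MACS2 with build mm10. For versions, settings and any control library, the sources used here give nothing. The authors' deposited values are the fold enrichment (a ratio over the caller's background) and the −log10 p and −log10 q. The deposited display score was not used. Read totals are not in the lists, so depth is unknown. A pileup was accepted where a whole number matched fold and p within 0.001 and the next missed by over 0.005. Intervals are 95% exact binomial or Poisson intervals and cover counting error only, since PCR copies are not independent molecules. A library's genome background was the lowest local background that recurred in 3 or more regions. Lists were overlapped by at least 1 bp. Genes came from an NCBI RefSeq table and starts from RefSeq windows, both on GRCm38.p6. A few listed genes were not found in the table. Genes were named by these rules: the 20 with the most regions, the 10 highest ratios among those with at least 3, the 10 with the most sequence and none, the 15 regions with the highest and 5 with the lowest −log10 q, and up to 4 per list. A few results that these rules select are not reported here. The regions and lists were chosen with earlier results of these data known, and the use of internal starts was added after seeing the data. The planned sequence search at all summits needs a genome and was not run. The pileup and ratio calculations were tested on simulated data. Alternatives were other thresholds, distances, gene lengths and overlap rules. Python 3.11.15, numpy 2.4.6, pandas 2.3.3, scipy 1.17.1 and matplotlib 3.10.9 were used.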

Additional observations from a re-analysis of the deposited data

How the results depend on the processing

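There were 588 regions with a −log10 q of 5 or more, 154 with 10 or more, 1424 with genes of at least 100 kb and 333 with genes of at least 500 kb. In 8 other settings it ran from 741 to 965. The number of genes with at least 3 regions and over 2 times the expected number was 47 for a −log10 q from 5, 2 from 10 and 39 with genes of at least 500 kb, and otherwise 71 to 106. The 2 left at 10 were Pde1c and Dlgap2. The number of lists whose interval excluded 1 was 3 at first, 1 for a −log10 q from 10 and 1 with regions within 5 kb counted once. The adhesion list was below 1 in all 5 other settings run for lists. The share of genes with a deep region that had an Otp region at an end was 34.8% within 5 kb, against 28.8% of genes without, and 10.1% for a −log10 q from 10, against 9.80%. Within 5 kb the deep regions themselves can be counted at the ends. The share of regions at internal starts was 2.49% within 100 bp of a start and 10.3% for a −log10 q from 10. Ratios under other settings were worked out for the genes named for holding the most regions, which all stood above 1 at first. These genes were picked on the same counts, and several settings recount nearly the same regions. How many of their ratios stay above 1 is therefore largely set by that choice and does not test them. Of these 292 ratios, 285 stayed on the same side of 1. The other 7 all fell to 0 at a −log10 q from 10: Lama2, Tmcc3, Psd3, Gse1, Arid1b, Maml3 and Camta1. The cause of these shifts was not tested, apart from fewer regions entering at stricter thresholds. No paired analysis was possible because Otp and IgG come as 1 library each. For the same reason leaving out a library was not run. The settings for internal starts, like-length rates and close regions in lists were chosen after seeing the data.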
